A study of Homo sapiens and Mus musculus with 16 samples.

Results

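Accessible chromatin in 2 mouse pancreatic cancer cell lines was examined at regions that lie more than 200 kb from every start site of a protein-coding transcript, called far regions here. They were 3120 of the 68074 regions in the primary tumor list (4.58%, 95% interval 4.43 to 4.74) and 4493 of the 80843 regions in the liver mets list (5.56%, 5.40 to 5.72). Membership was decided by position alone, and the deposited score played no part in it. Start sites were those of all protein-coding transcripts in GENCODE vM21 on mm10 (GRCm38), and the nearest edge of a region was measured.

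The study set HPAF-II, an established human pancreatic adenocarcinoma line, with and without a CRISPR knockout of HNF4G beside cell lines from the KPC mouse, each group having 4 samples, 16 in all. The KPC primary tumor line and the KPC liver mets line (from metastases in the liver) are described by the study as matched and isogenic. They come from the autochthonous KPC model, a mouse in which tumors arise in the pancreas. Both KPC groups are labelled wild type (WT) and untreated and were grown in DMEM with serum. Neither KPC group carries the HNF4G knockout. Each group stands for cells of 1 line, so a difference between the groups is a difference between these lines.

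Chromatin accessibility was measured by Omni-ATAC-seq, in which a transposase inserts adapters into DNA that nucleosomes do not cover. Each group was represented by 1 list of regions that stands for its 4 samples. No value was held per sample, the number of reads is unknown, and none of the differences has a replicate check or a test. Wilson 95% intervals cover counting error only. Start sites of 5 of 5 epithelial markers (such as Krt8, Krt19 and Epcam) and of the pancreatic duct markers Sox9, Muc1 and Onecut2 had a region at or near them, up to 1 kb away, in both KPC lists, and those of 0 of 4 immune markers had one in either. Of 4 hepatocyte markers, Ttr had a region, in the primary tumor list, and none had one in the mets list. Regions were also listed at 2 of 3 endothelial markers (Pecam1 and Kdr) and 2 of 4 fibroblast markers (Col1a1 and Pdgfra) in both lists, and the part of these cell types in the far regions was not tested.

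Stretches of the genome without coding genes, often called gene deserts, commonly lie beside genes for transcription factors and signaling proteins of development. They hold distal enhancers, short elements that can act on a promoter far away through looping of the DNA, and long noncoding RNA genes. Enhancers differ between cell states more than promoters do, and in epithelial cells many of them carry sites for AP-1, the Fos and Jun family of transcription factors. Bordering coding genes are given below to say where a region lies, and no gene was shown to be a target of one.

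Sequences of 11 far regions are given first, each as the 300 bases around the center of the region, on the plus strand of mm10. They comprise the region with the highest score in each list, the 5 highest-scoring regions in the mets list only, 2 of the 5 highest-scoring in the primary tumor list only, and 2 shared regions whose score differed widely between the lists, each overlapping a single region of the other list. Names give the coding genes on the left and right. Capitals mark matches, on either strand, to consensus sequences of transcription factors, of which 4 occur here. The letters TGANTCA were searched for AP-1. For the RUNX family, factors with roles in epithelium and blood, the letters were TGTGGTTT. For the FOXA factors of gut and pancreas, which open chromatin in development, the letters were TGTTTAC. For the GATA family of zinc finger factors, which includes Gata3 and Gata6, the letters were AGATAAG.
Jag1 to Btbd3, highest in the primary tumor list, chr2:137715985-137716284: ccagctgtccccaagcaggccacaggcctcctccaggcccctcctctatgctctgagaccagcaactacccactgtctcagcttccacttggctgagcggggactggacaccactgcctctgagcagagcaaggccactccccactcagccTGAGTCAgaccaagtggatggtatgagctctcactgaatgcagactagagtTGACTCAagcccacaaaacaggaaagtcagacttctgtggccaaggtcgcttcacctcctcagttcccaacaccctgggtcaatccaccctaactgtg
Cdh6 to Cdh9, highest in the mets list, chr15:16404267-16404566: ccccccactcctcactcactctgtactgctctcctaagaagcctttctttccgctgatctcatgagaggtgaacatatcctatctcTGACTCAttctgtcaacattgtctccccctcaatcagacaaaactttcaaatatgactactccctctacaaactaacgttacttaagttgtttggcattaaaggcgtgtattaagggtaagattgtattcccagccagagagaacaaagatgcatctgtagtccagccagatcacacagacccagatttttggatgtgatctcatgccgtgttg
Ripk2 to Mmp16, mets only, chr4:17108024-17108323: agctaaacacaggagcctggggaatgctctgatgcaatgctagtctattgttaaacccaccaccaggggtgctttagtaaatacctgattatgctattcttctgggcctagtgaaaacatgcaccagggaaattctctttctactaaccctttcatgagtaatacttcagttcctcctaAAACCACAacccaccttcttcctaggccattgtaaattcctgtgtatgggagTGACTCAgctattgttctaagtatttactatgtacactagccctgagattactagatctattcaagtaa
Olfm4 to Pcdh17, mets only, chr14:82065230-82065529: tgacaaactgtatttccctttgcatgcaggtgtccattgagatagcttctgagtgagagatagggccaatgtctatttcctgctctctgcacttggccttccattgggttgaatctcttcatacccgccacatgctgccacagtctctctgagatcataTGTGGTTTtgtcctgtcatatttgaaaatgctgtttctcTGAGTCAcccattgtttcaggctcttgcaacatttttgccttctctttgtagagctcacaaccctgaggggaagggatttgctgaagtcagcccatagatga
Arrdc4 to Nr2f2, mets only, chr7:70016661-70016960: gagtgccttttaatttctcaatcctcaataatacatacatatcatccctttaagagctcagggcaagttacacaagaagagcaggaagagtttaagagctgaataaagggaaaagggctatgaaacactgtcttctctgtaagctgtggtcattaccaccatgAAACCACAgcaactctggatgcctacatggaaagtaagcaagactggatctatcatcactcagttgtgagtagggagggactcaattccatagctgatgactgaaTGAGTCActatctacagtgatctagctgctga
Plxdc2 to Nebl, mets only, chr2:16909736-16910035: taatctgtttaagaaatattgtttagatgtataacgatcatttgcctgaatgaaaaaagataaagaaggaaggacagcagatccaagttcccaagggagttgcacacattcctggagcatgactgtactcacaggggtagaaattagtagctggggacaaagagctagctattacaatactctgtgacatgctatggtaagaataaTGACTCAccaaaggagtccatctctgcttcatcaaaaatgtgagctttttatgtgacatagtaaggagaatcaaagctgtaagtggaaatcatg
Il7 to Stmn2, mets only, chr3:8123609-8123908: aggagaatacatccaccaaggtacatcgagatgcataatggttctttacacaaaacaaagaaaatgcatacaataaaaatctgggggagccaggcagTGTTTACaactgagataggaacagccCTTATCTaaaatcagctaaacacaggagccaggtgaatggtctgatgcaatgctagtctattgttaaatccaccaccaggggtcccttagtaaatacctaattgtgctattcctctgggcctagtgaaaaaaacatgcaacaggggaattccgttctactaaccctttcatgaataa
Chd6 to Ptprt, primary tumor only, chr2:161513300-161513599: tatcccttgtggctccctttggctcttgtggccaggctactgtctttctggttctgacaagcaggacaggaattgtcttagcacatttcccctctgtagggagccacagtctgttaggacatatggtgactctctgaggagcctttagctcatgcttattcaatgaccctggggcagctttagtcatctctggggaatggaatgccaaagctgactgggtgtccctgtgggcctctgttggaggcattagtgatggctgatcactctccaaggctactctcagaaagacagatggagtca
Rps24 to Zmiz1, primary tumor only, chr14:25154324-25154623: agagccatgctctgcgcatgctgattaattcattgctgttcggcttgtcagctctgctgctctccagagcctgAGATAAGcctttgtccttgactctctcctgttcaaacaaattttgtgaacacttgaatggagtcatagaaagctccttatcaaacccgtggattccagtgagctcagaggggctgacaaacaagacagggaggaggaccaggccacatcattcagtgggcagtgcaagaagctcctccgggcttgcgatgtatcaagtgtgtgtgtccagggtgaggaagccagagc
Cdh9 to Cdh10, higher in mets, chr15:18064143-18064442: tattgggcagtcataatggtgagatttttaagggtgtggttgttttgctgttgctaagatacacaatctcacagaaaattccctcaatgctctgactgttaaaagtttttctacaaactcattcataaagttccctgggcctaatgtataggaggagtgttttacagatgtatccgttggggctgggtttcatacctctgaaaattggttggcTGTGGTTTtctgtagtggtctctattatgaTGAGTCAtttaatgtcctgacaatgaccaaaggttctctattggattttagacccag
Klf5 to Klf12, higher in the primary tumor, chr14:99521854-99522153: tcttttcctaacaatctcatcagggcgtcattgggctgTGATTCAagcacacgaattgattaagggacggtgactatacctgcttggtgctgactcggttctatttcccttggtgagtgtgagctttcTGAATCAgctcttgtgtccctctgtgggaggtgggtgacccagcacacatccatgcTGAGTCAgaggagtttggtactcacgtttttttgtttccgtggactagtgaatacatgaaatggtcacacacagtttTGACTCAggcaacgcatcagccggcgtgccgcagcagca

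An AP-1 match stood in 8 of these 11 sequences, and 3 of the 5 mets-only ones held an AP-1 and a RUNX match together. The region between Klf5 and Klf12 held 4 AP-1 matches. No match to any of the 10 consensus sequences searched was present in the highest-scoring primary tumor-only region, between Chd6 and Ptprt.

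Far regions were sparse for the ground they cover. Of the sequenced mouse genome, 24.3% (644.0 of 2647.5 Mb) lies more than 200 kb from every coding start site. Far regions numbered 4.84 per Mb of that sequence in the primary tumor list and 6.98 per Mb in the mets list, whereas the rest of the genome held 32.4 and 38.1 regions per Mb. In the HPAF-II lists the same rule, with GENCODE v44, found 9087 regions (7.69%) in control (Cas9) cells and 6437 (6.63%) in HNF4G-KO cells, and 24.3% of the human genome lies that far. Genome and annotation differ between the species, and the shares are given side by side only.

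A region was called shared if it overlapped a region of the other KPC list by 1 bp or more, and otherwise mets-only or primary tumor-only. In the primary tumor list, 329 of the 3120 far regions (10.5%, 9.52 to 11.7) were primary tumor-only, beside a background of 8.51% of all regions in that list. In the mets list, 1671 of the 4493 far regions (37.2%, 35.8 to 38.6) were mets-only, beside a background of 20.2%. Among the regions nearer to genes the shares were 8.41% (8.20 to 8.63) and 19.2% (18.95 to 19.5). The excess over nearer regions was large in the mets list, with intervals far apart, and small in the primary tumor list.

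The mets-only share was higher in each bin farther from genes, although the intervals of the 1 to 10 kb and 10 to 50 kb bins overlapped. It was 8.39% within 1 kb of a start site, 20.9% from 1 to 10 kb, 21.8% from 10 to 50 kb and 27.2% from 50 to 200 kb. Beyond the limit it was 34.8% (33.2 to 36.4) from 200 to 500 kb and 45.1% (42.1 to 48.1) over 500 kb. The primary tumor-only share was 5.57% within 1 kb, lay between 9.15% and 9.85% from 1 to 200 kb, and was 10.8% (9.64 to 12.1) and 9.52% (7.47 to 12.1) in the far bins. With both lists cut to their strongest 61266 regions, the mets-only share of far regions was 27.6% (26.1 to 29.2) against 12.2% of nearer ones, and the primary tumor-only share was 16.4% (15.1 to 17.8) against 14.4%. Just outside the limit, at 190 to 200 kb, 26.2% of 313 mets regions were mets-only and 12.1% of 264 primary tumor regions were primary tumor-only. Just inside it, at 200 to 210 kb, these shares were 27.9% of 297 and 8.97% of 234.

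**Figure D1:**
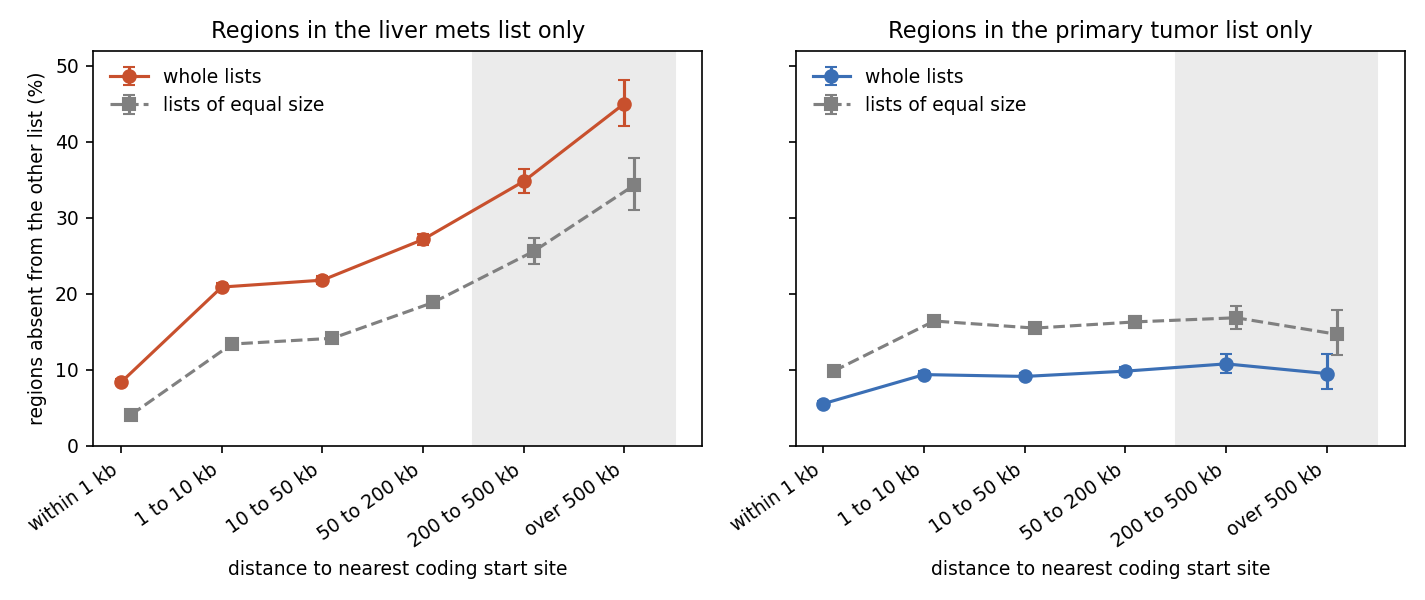
The percent of regions absent from the other KPC list (vertical axis) is plotted by distance to the nearest protein-coding start site, with far regions on the shaded ground and bars for Wilson 95% intervals. Mets-only shares rise from 8.39% to 45.1% across the 6 bins, and primary tumor-only shares stay flat beyond 1 kb; squares show lists of equal size.

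Regions of low score are the ones most often missing from another list, so the shares were also read within deciles of the deposited score. In the weakest decile of the mets list 73.4% of far regions (69.4 to 77.1) were mets-only, against 52.8% of the others. In the strongest decile 10 of 443 far regions (2.26%, 1.23 to 4.10) were mets-only, against 35 of 7642 others (0.458%, 0.330 to 0.636). Far regions stood above the others in each of the 10 deciles of the mets list. In the primary tumor list the weakest decile held 38.2% of far regions and 38.5% of the others in that list only, and the widest gap was in the third, at 20.8% (16.6 to 25.7) against 11.9%. When the other regions were weighted to the deciles of the far regions, the difference was 16.1 percentage points in the mets list and 2.14 points in the primary tumor list. Against regions 50 to 200 kb from a start site alone, it was 8.65 and 0.766 points.

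**Figure D2:**
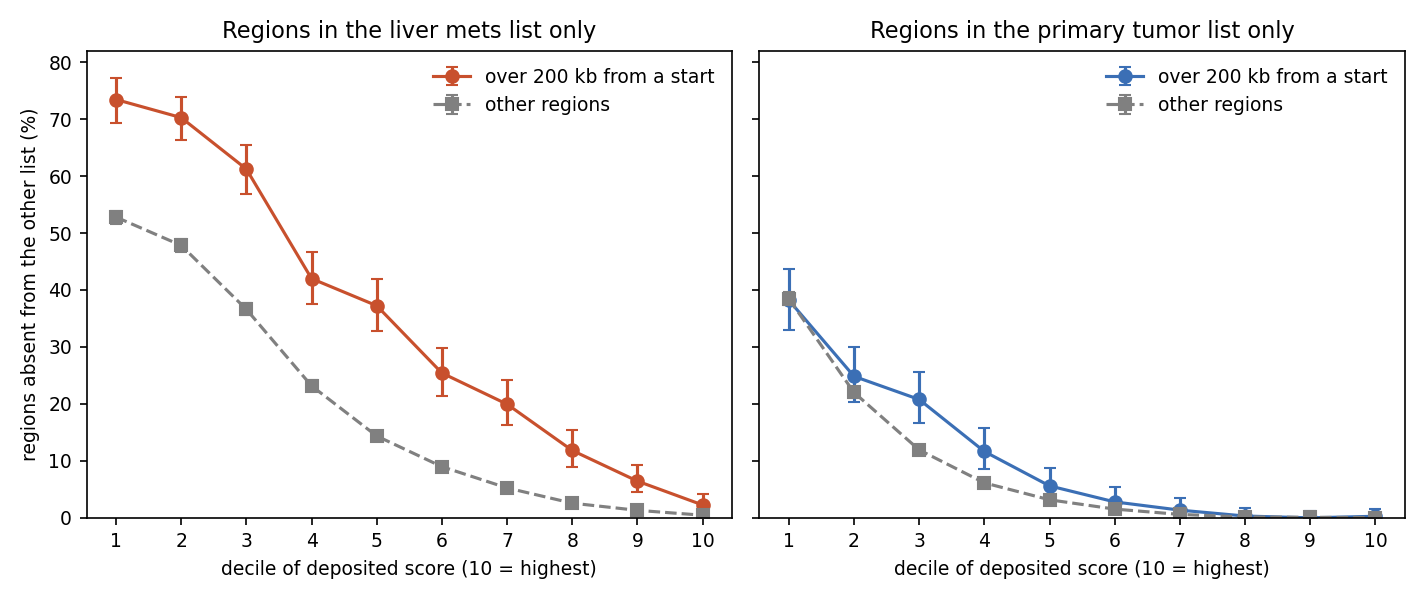
The percent of regions absent from the other list is plotted by decile of deposited score, for far regions (circles) and all other regions (squares), with Wilson 95% intervals as bars. In the mets list far regions run from 73.4% to 2.26% and lie above the others in every decile, and in the primary tumor list they run from 38.2% in the weakest decile to 0.275% in the strongest.

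Base composition moved with distance. The median GC content of the 300 central bases fell along the same bins of the mets list, from 60.3% within 1 kb to 40.7% over 500 kb, and was 42.7% in far regions of either list against 49.3% and 49.0% in the others. Weighted to the same GC deciles, far regions were mets-only 11.7 percentage points more often than the others, and 12.0 points more often at the same GC and score deciles together. In the primary tumor list the same weighting by GC gave a difference of -0.284 points, and with GC and score together it was 0.934 points, so the sign of the small excess there turned with the weighting. Regions with more than 50% of bases in annotated repeats (lower case in the reference) were 5.12% of far mets regions, of which 48.7% (42.3 to 55.1) were mets-only. Without them the mets-only share of far regions was 36.6%.

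Far regions were narrower than other regions, and in the mets list they ranked somewhat lower by score. Scores were read as percentiles within their own list, since the scale of the score is not stated. The median percentile of far regions was 50.4 in the primary tumor list and 45.6 in the mets list, against 49.95 and 50.2 for the others. Their median width was 474 and 376 bp, against 519 and 412 bp. Shared far regions had a median percentile of 62.6 in the mets list, and mets-only ones stood at 22.4. Primary tumor-only far regions had a median percentile of 15.3 and a median width of 295 bp.

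The highest-scoring far region of the primary tumor list lay at chr2:137715702-137716568, 599.1 kb from Jag1, which encodes a ligand of Notch receptors, and 540.0 kb from Btbd3. It lay inside the lincRNA gene Gm14064 and stood at percentile 99.97 in the primary tumor list and 99.94 in the mets list. In the mets list the highest was chr15:16404016-16404819, between the cadherin genes Cdh6 and Cdh9 and 323.9 kb from Cdh9, at percentile 99.97 there and 99.78 in the primary tumor list. All of the 10 highest far regions of either list were shared, and 6 of them were common to both sets of 10. They included regions beside Foxo1, a forkhead factor downstream of insulin signaling, Slc7a11, the cystine transporter, and Nr2f1, an orphan nuclear receptor.

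The highest mets-only far regions stood higher in their list than the highest primary tumor-only ones, but they come from a larger set, 1671 against 329. In the strongest decile stood 10 of the 1671 (0.598%) and 1 of the 329 (0.304%). The highest mets-only one, chr4:17107937-17108411 between Ripk2 and Mmp16, stood at percentile 99.2, and 74.3% of its bases lay in repeats. The next were chr14:82065086-82065674 between Olfm4 and Pcdh17 at 99.0, chr7:70016545-70017078 between Arrdc4 and Nr2f2 at 95.2, chr2:16909667-16910105 between Plxdc2 and Nebl at 93.8 and chr3:8123115-8124403 between Il7 and Stmn2 at 93.3. The highest primary tumor-only far region, chr2:161513236-161513664 between Chd6 and Ptprt, stood at 90.9. The following 4, beside Ccng1, Dsc3, Fbxw7 and Zmiz1, stood between 61.9 and 79.1.

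The mets-only regions beside Ripk2 and Il7 shared a run of 28 identical bases, which was noticed after the sequences had been read.
Run in both regions: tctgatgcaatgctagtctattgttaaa
This run occurs 116 times in the mouse genome, counting both strands. It was present in 3 far regions of the mets list, all mets-only, and in 0 of the 3120 far regions of the primary tumor list. The 3 include the regions beside Ripk2 and Il7 from which the run was taken. Both had been picked as mets-only, so these counts cannot show a link of the run with the mets list. Repeats made up 74.3% of the bases of the region beside Ripk2 and 55.8% of the one beside Il7. Among nearer regions it was present in 4 of the mets list, 1 of them mets-only, and in 3 of the primary tumor list, all shared.

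Shared far regions kept their rank less closely than other shared regions. Across the 2791 shared far regions of the primary tumor list, each paired with its longest overlap in the mets list, Spearman's rho of the percentiles was 0.773, against 0.859 across 59489 other shared regions and 0.812 across those of them at 50 to 200 kb. These are correlations across regions of a single pair of lists, and regions are not replicates. The percentile was more than 20 points higher in mets at 537 far regions (19.2%) and more than 20 points lower at 228 (8.17%), against 12.6% and 4.97% of the others and 16.5% and 6.85% of those at 50 to 200 kb, so that both shares were higher with distance. In the 2730 pairs in which 1 region overlapped 1 region, the shares of far regions were 19.2% (17.8 to 20.7) and 8.02% (7.06 to 9.10). The median change was 3.51 points (95% interval of the median 2.85 to 4.18), near the 3.67 points of other shared regions. The mets list is longer, and when the shared regions alone were ranked the median change of far regions was 0.405 points.

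**Figure D3:**
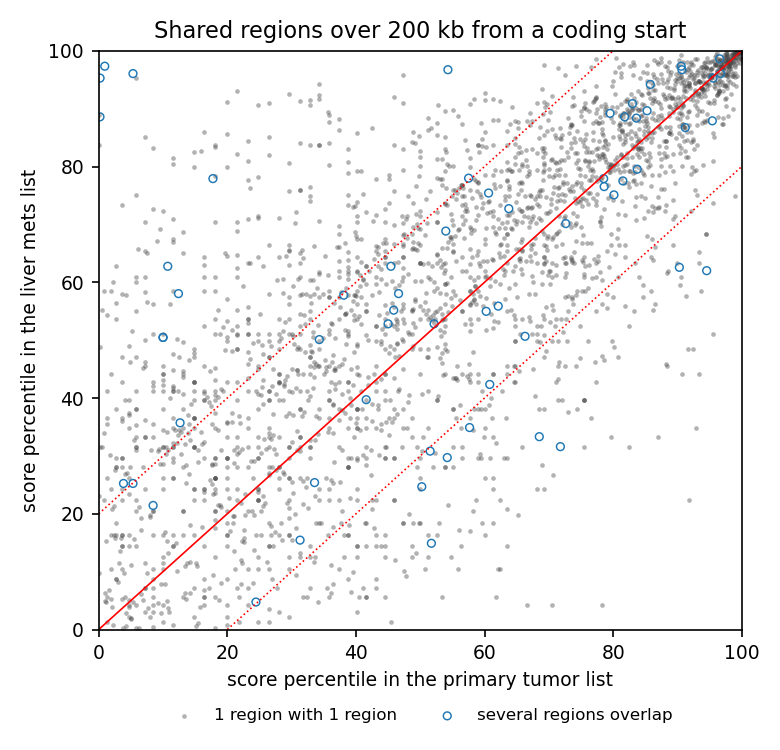
Each point is a far region found in both KPC lists (2791 regions), at its score percentile in the primary tumor list (horizontal axis) and in the mets list (vertical axis); open blue circles are pairs in which several regions of a list overlap, the solid line marks equal percentiles and the dotted lines 20 points either way. Above the upper line lie 537 regions and below the lower line 228.

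A region can be split in one list and whole in the other, and 4 of the 10 widest rises were of this kind. In each of these, a weak primary tumor region and a strong one beside it overlapped the same mets region. Between Inhba, which encodes the activin A subunit, and Sugct the weak region stood at percentile 0.218, but the other stood at 95.5 and their mets region at 95.3, so that the strongest regions at this place ranked alike in the lists. The same held between St3gal1 and Zfat, where the higher primary tumor region stood at 96.7 and the mets region at 96.1. Between Dchs2 and Sfrp2 these values were 90.6 and 97.3, and between C1d and Etaa1 they were 81.8 and 88.6.

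The other 6 rises were pairs of single regions. Between Cdh9 and Cdh10, both cadherin genes, the percentile was 0.106 in the primary tumor list and 88.8 in mets, and the sequence is among those above. Between Itga1 and Isl1, a LIM homeobox factor gene, it was 0.106 and 83.7. Between Prdm1, a repressor gene, and Prep it was 7.17 and 85.1. The widest rise among pairs of single regions was 89.4 points, between Gm8797 and 1700008P02Rik, where 82.4% of the primary tumor region lay in repeats. The widest fall was 73.9 points, and all of the 10 widest falls were pairs of single regions. Between Tom1l1 and Kif2b the percentile was 78.2 in the primary tumor list and 4.32 in mets, between Rorb and Anxa1 91.9 and 22.4, and between Klf5 and Klf12 70.5 and 4.32. A second region of the Tom1l1 to Kif2b stretch stood at 86.9 and 33.3. Among the 10 widest, falls also lay between Klf4 and Gm26657, at 61.9 and 5.68, and between Akr1e1 and Klf6, at 62.4 and 10.5. The first lay 370.3 kb from Klf4. The second lay 326.8 kb from Akr1e1 and 925.2 kb from Klf6. Klf4 and Klf6 encode zinc finger factors of epithelial cells.

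Neighboring coding start sites bound 1177 stretches with sequence more than 200 kb from either of them. Far regions were listed in 455 of them in both lists, in 185 in the mets list alone and in 11 in the primary tumor list alone. Of 398 stretches with 3 or more far regions of the mets list, these were all mets-only in 47. Of 288 such stretches in the primary tumor list, they were all primary tumor-only in 2.

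The stretch with the most far regions lay between Myc, the transcription factor that drives cell growth, and Gsdmc on chromosome 15, with 58 in the primary tumor list (7 primary tumor-only) and 67 in the mets list (15 mets-only). In this stretch 15 primary tumor and 17 mets regions lay in Pvt1, the noncoding gene next to Myc, and 18 and 17 in the lincRNA gene Gm41335. Of the 10 fullest stretches the most crowded per Mb, between Sox9, a factor of pancreatic progenitor and duct cells, and Slc39a11, a zinc transporter gene, held 42 and 48 far regions in 383.5 kb, which is 109.5 and 125.2 per Mb, with 0 primary tumor-only and 5 mets-only. Between Klf4 and Gm26657 there were 44 in either list, 4 primary tumor-only and 5 mets-only.

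Other full stretches lay beside signaling and transcription factor genes. Beside Zeb2, a repressor of epithelial genes, 38 primary tumor and 48 mets far regions were listed toward Acvr2a. Between Nmbr and Cited2, which encodes a coactivator, there were 34 and 47. Between Nudt12 and Efna5, an ephrin gene, there were 38 and 40. Between Jag1 and Btbd3 there were 32 and 43, of which 14 were mets-only, and between Adamts5 and N6amt1 30 and 38.

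Mets-only far regions were most numerous between Celf2 and Gata3, a zinc finger factor, on chromosome 2, where 13 primary tumor regions, all shared, stood beside 35 mets regions, of which 22 were mets-only. The promoter of Gata3 had a region in both lists, at percentile 83.8 in the primary tumor list and 82.5 in mets. Lrrtm3 to Reep3 with 15 mets-only of 25, Inhba to Sugct with 15 of 44 and Myc to Gsdmc with 15 of 67 followed with equal counts. The stretch between Arrdc4 and Nr2f2, which encodes the orphan nuclear receptor COUP-TFII, held 10 far regions in mets, all mets-only, and 0 in the primary tumor list. On both sides of Nr2f2 together there were 14, all mets-only. Its own start site had a region in both lists, at percentile 60.3 in the primary tumor list and 58.6 in mets.

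**Figure D4:**
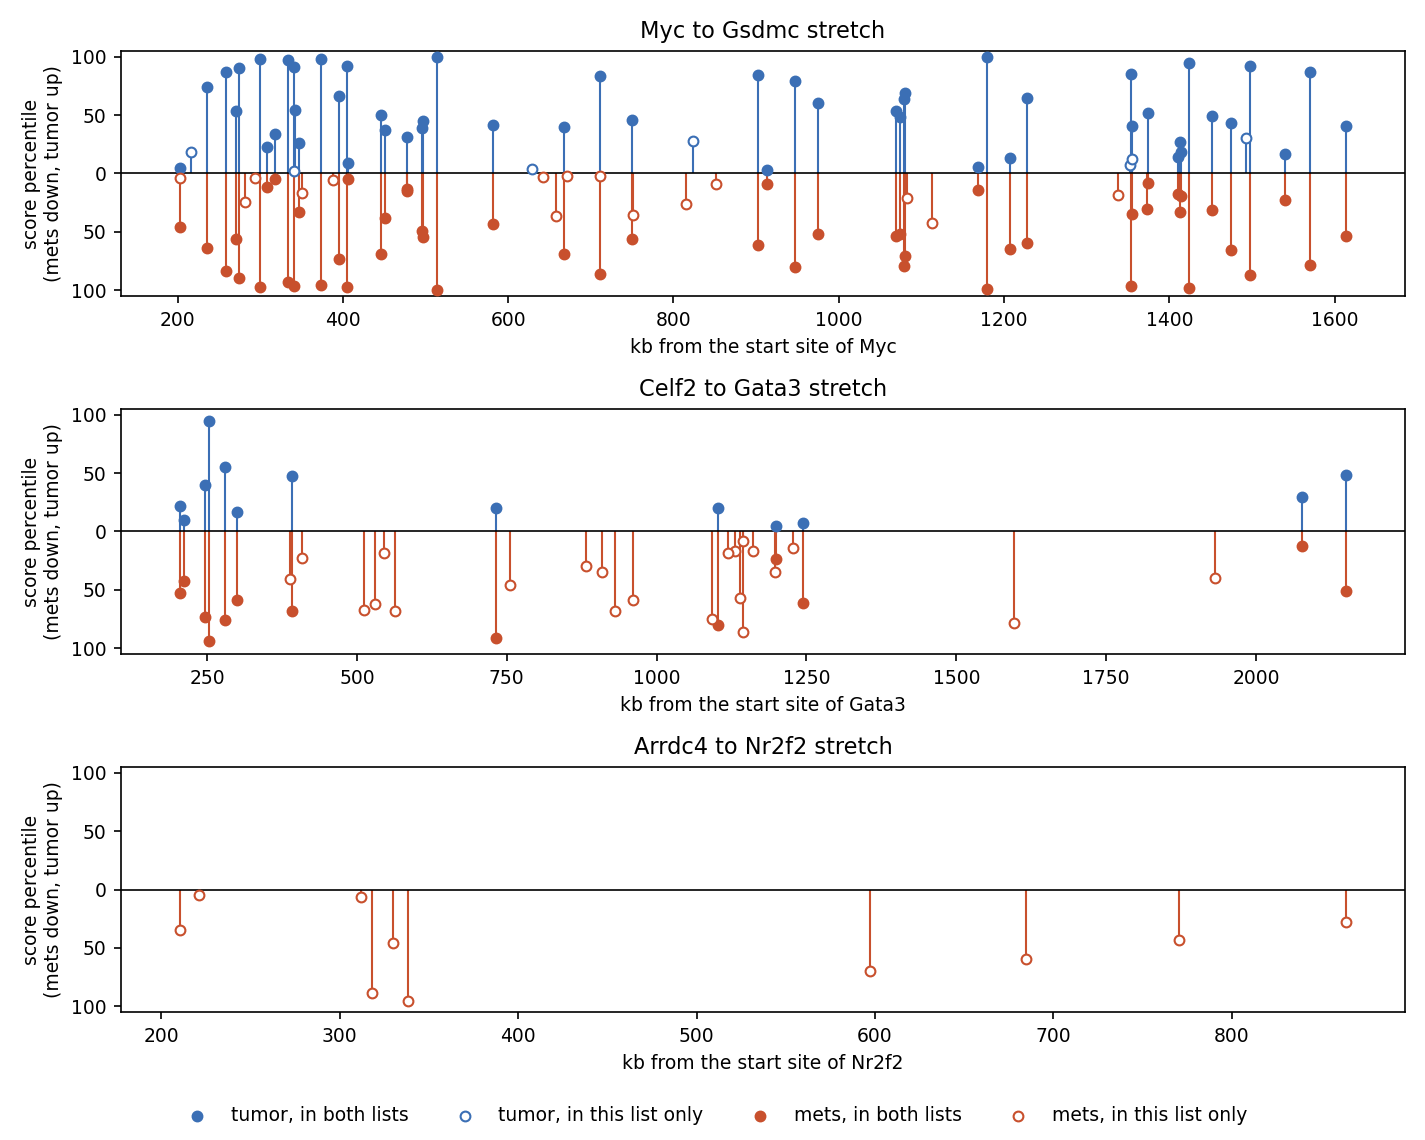
Far regions are drawn by distance in kb from the start site of Myc, Gata3 or Nr2f2 (horizontal axis), with the score percentile upward for the primary tumor list and downward for mets; filled points are shared and open points are in one list only. The Myc stretch holds 58 and 67 regions, the Gata3 stretch 13 and 35, and the Nr2f2 stretch 0 and 10.

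Some stretches were empty in the primary tumor list throughout, nearer regions included. Those with the most mets-only regions were picked by that count after the values were seen. Between Il7 and Stmn2 there were 11 far and 6 nearer regions in mets and none in the primary tumor list, and between Chrm3 and Ryr2 10 far and 7 nearer ones. Between Ripk2 and Mmp16, in contrast, the 10 far regions were all mets-only while 5 of 6 nearer mets regions were shared. Between Arrdc4 and Nr2f2, 9 of 11 nearer mets regions were shared.

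The most primary tumor-only far regions in a stretch lay between Slc10a2 and Efnb2. Between Slc10a2, the bile acid transporter, and Efnb2, an ephrin gene, 15 of 48 primary tumor regions were primary tumor-only and 8 of 44 mets regions were mets-only. Between Myo16 and Irs2, an adaptor of the insulin receptor, 8 of 28 were primary tumor-only and 1 of 21 mets-only. Both of these lie on chromosome 8, where 20.7% (15.9 to 26.5) of 222 far primary tumor regions were primary tumor-only and 28.2% of 252 far mets regions were mets-only. The nearer regions of chromosome 8 were primary tumor-only at 14.1%, above their share on any other chromosome, and mets-only at 12.3%. The next count, 7, was shared by the Myc to Gsdmc stretch, with 7 of 58, and by the side of Sox9 toward Kcnj2, where 7 of 14 were primary tumor-only, in contrast to 0 of 42 toward Slc39a11. By chromosome the highest primary tumor-only share was 25.5% (18.03 to 34.7) of 102 on chromosome 18, where nearer regions stood at 11.9%. Mets-only shares by chromosome ran from 25.7% of 70 on chromosome 19 to 54.9% (45.2 to 64.2) of 102 on chromosome 7, and on chromosome 13 the share was 42.5% of 412. Nearer regions stood at 15.3% on chromosome 19, 17.4% on chromosome 7 and 27.9% on chromosome 13, the last being their highest share. No far region was listed on chromosome Y.

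A list of 51 genes of transcription factors, signaling and adhesion was examined, of which 37 border a far stretch and 32 had at least 1 far region. Per Mb of far sequence beside them there were 11.5 mets and 8.87 primary tumor regions, against 7.03 and 4.89 beside all bordering genes. The counts were uneven, and of the 554 mets regions summed over the list 97 lay beside Myc, 58 beside Sox9 and 52 beside Klf6. Regions that border 2 listed genes, such as Irx3 and Irx5, were counted for both. The density without the fullest genes was not computed. The mets-only share beside the list was 31.2%, against 37.0%. Myc, with both sides counted, had 90 primary tumor and 97 mets far regions, Sox9 56 and 58, Klf6 38 and 52, and Klf5 14 and 18. Beside Hnf4g, the nuclear receptor gene knocked out in the study's human cells, 12 and 13 were listed, of which 1 was primary tumor-only and 2 mets-only.

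Several genes of this list had unlike counts in the 2 KPC lists, and those named here were picked for it. Their counts are small. Over all far regions, 37.2% of those in the mets list were mets-only. In the primary tumor list 10.5% were primary tumor-only. Sox2, a factor of stem cells and foregut, had 2 far regions in the primary tumor list and 12 in mets, 10 of them mets-only, and its start site had a region in mets alone, at percentile 24.9. Bmp2, a secreted growth factor gene, had 7 and 18, of which 11 were mets-only. Nr2f1 had 6 and 16, of which 10 were mets-only. Fgf10 and Sox5 had 0 in the primary tumor list and 3 each in mets. In the other direction, Gata6, a factor of the classical pancreatic cancer state, had 9 in the primary tumor list, 4 of them primary tumor-only, and 6 in mets, all shared. Sox11 had 11, of which 7 were primary tumor-only, and 6 in mets, 2 of them mets-only, and Irx3 with its neighbor Irx5 had 8 and 6. Meis2, Sox6, Tbx3, Cdh11 and Ctnna2 border far stretches with no far region in either list.

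Far regions were also found in company, counted as another far region of the same list within 10 kb. This held for 52.3% (50.6 to 54.1) in the primary tumor list and 51.4% (49.97 to 52.9) in mets. Any region of the list within 10 kb was present for 53.2% and 52.1% of far regions, against 74.7% and 76.8% of the others. Chains of 3 or more with gaps up to 10 kb numbered 233 and 313. The longest of the primary tumor list had 12 regions in 41.0 kb between Zpld1 and Nfkbiz, an inducible regulator of NF-kappaB, and in the mets list its counterpart had 11. The longest of the mets list had 14 in 61.3 kb between Sox9 and Slc39a11, of which 1 was mets-only. Of far mets regions that stood alone 46.4% were mets-only, against 24.4% in chains of 3 or more. In the primary tumor list these shares were 10.6% and 9.66%. The lone far mets regions also scored lower, at a median percentile of 42.8 against 50.6 in such chains. The shares were not compared at equal score. Chains made up of one list throughout numbered 16 in mets and 1 in the primary tumor list. The longest was 4 mets-only regions in 14.1 kb between Celf2 and Gata3, and the one of the primary tumor list was 3 regions in 4.89 kb between Sox11 and Dcdc2c.

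Long intergenic noncoding RNA (lincRNA) genes overlapped 16.2% (14.97 to 17.6) of far regions in the primary tumor list and 14.5% (13.5 to 15.6) in mets, against 4.75% and 4.65% of the others. These genes lie between coding genes by definition, whereas 56.8% and 55.5% of the others had their center inside a coding gene. The contrast is thus partly set by the distance rule, and the share of far sequence in lincRNA genes was not measured. Antisense genes, which by definition lie opposite other genes, overlapped 0.673% and 0.734%, against 3.74% and 3.63%. A start site of a noncoding transcript lay within 1 kb of 3.85% and 2.96% of far regions, against 7.20% and 6.92% of the others. Genes named here for noncoding starts and counts were picked after the values were seen. The strongest such region in both lists was at Gm37257, between Ddhd1 and Gm15217, at percentile 99.2 in the primary tumor list and 99.5 in mets, followed by the one at the lincRNA gene Gm29137 beside Tbl1xr1, at 98.8 and 99.2.

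Far regions in lincRNA genes were mets-only less often, 28.5% (25.2 to 32.1) of 652 against 38.7% (37.1 to 40.2) of the remaining 3841. Those in lincRNA genes also had a higher median percentile, 49.9 against 45.2, and a higher median GC content, 43.5% against 42.3%. The shares were not compared at equal score or GC. At noncoding start sites the mets-only share was 18.8% (13.1 to 26.3) of 133 against 37.8% of 4360, and these regions stood higher in the list, at a median percentile of 60.6 against 45.6. The noncoding genes with the most far regions were 3110039I08Rik on chromosome 9, with 26 in the primary tumor list and 32 in mets, and Gm49317, which overlaps it, with 22 and 27. The lincRNA gene 2610035D17Rik beside Sox9 held 19 and 23. None of the primary tumor regions in these 3 genes was primary tumor-only, nor was any of the 18 in 2610307P16Rik. Other full genes differed, with 5 of 19 primary tumor-only in Gm31135 and 3 of 18 in Gm41335. Over all far regions of that list the share was 10.5%.

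The AP-1 consensus marked out in the sequences above was the commonest of the 10 searched. TGANTCA stood within the 300 central bases of 56.7% (55.0 to 58.5) of far regions in the primary tumor list and 56.4% (54.9 to 57.8) in mets. The others held it in 35.6% and 36.0%, those 50 to 200 kb from genes in 49.7% and 49.8%, and all regions of the lists in 36.5% and 37.1%. Others weighted to the same GC deciles held it in 47.2% and 46.6%, so that far regions stood 9.58 and 9.78 points higher, and against regions at 50 to 200 kb of equal GC the difference was 4.24 and 3.94 points. The same letters written backwards occurred in 12.8% and 12.9% of far regions and in 10.1% and 9.96% of the others. Mets-only far regions held AP-1 in 53.6% and shared ones in 58.1%, and among nearer mets regions the order was the other way, at 37.7% and 35.5%.

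RUNX (TGTGGTTT) stood in 7.12% (6.27 to 8.07) and 7.72% (6.98 to 8.54) of far regions, against 4.04% and 4.63% of the others and 4.18% and 4.80% of all regions, and 1.37 and 1.30 points of this difference remained at equal GC. It was present in 8.50% of mets-only far regions and in 3.65% of primary tumor-only ones, 142 and 12 regions. Nearer regions showed the same order, with 6.39% of mets-only and 2.76% of primary tumor-only ones. TEAD (ACATTCCA) stood in 4.23% and 4.21%, against 2.54% and 2.73% of the others and 2.61% and 2.81% of all regions, and the difference at equal GC was 0.868 and 0.671 points. FOXA (TGTTTAC) stood in 7.95% and 8.68%, against 5.58% and 6.05% of the others and 5.69% and 6.20% of all regions, but at equal GC the difference was 0.226 and 0.350 points, and its letters written backwards were found in 9.58% of far regions against 5.61% of the others in the primary tumor list. For GATA, present in 6.63% and 6.48% against 4.50% and 4.44% of the others and 4.60% and 4.56% of all regions, the difference at equal GC was 0.326 and 0.271 points. HNF4 (CAAAGTCCA) stood in 1.22% and 1.14%, against 0.854% and 0.871% of the others and 0.871% and 0.886% of all regions. For HNF4 the difference at equal GC was 0.208 and 0.115 points, and with whole regions searched the shares were 1.51% and 1.31% of far regions against 1.48% and 1.28% of the others. Against regions at 50 to 200 kb of equal GC, the difference was -0.212 and 0.0428 points for FOXA and -0.149 and -0.0911 points for GATA. By the same comparison it was 1.07 and 0.703 points for RUNX, 0.829 and 0.439 for TEAD, and 0.225 and 0.0580 for HNF4.

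CTCF, the factor that anchors DNA loops, went the other way. Its consensus stood in 0.929% (0.648 to 1.33) of far regions in the primary tumor list and 1.58% (1.25 to 1.99) in mets, against 4.57% and 4.80% of the others and 4.41% and 4.62% of all regions, and the differences at equal GC were -3.15 and -2.90 points. Within the far mets regions it was present in 2.51% of mets-only and 1.03% of shared ones, and within the nearer mets regions in 4.69% and 4.83%. KLF (GGGTGTGGC or GGGCGTGGC) stood in 0.962% and 0.757%, against 2.65% and 2.64% of the others and 2.57% and 2.53% of all regions, with -0.340 and -0.459 points at equal GC. ETS (CCGGAAGT) stood in 0.224% and 0.223%, against 1.51% and 1.43% of the others and 1.45% and 1.37% of all regions, with -0.185 and -0.170 points at equal GC. Against regions at 50 to 200 kb of equal GC, the differences were smaller, at -1.48 and -1.33 points for CTCF. For KLF they were -0.186 and -0.387 points, and for ETS -0.0741 and -0.108 points. A match is a run of letters, and binding was not measured here.

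**Figure D5:**
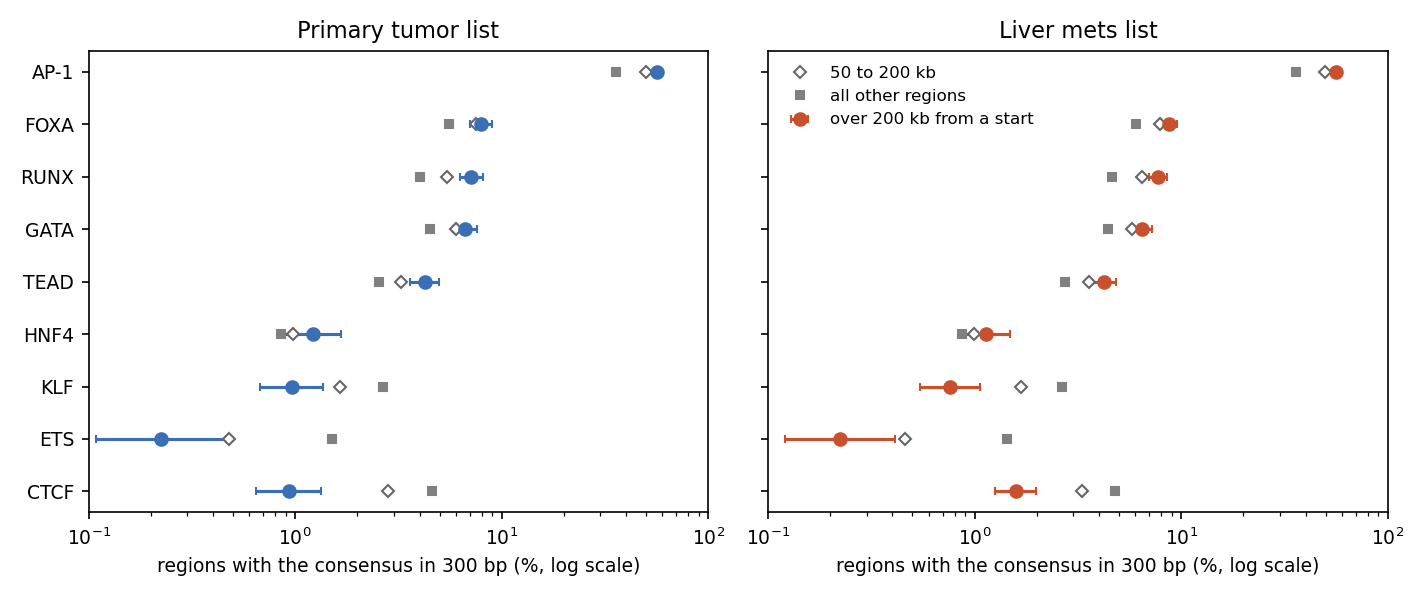
The percent of regions with the named consensus sequence in their 300 central bases is plotted on a log scale for far regions (circles, bars for Wilson 95% intervals), regions 50 to 200 kb from a start site (diamonds) and all other regions (squares). AP-1 is highest, at 56.7% and 56.4% of far regions, and CTCF, KLF and ETS lie below the other regions in both lists.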

How the data were processed

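The data were 4 region lists in BED format, 1 per group of 4 samples, of which the KPC pair was analysed in depth. The deposited score of each region was written by the authors, its scale is not given in the sources used here, and it was used only as a percentile within its own list (mid-rank for ties). The submitters' processing notes name Bowtie2 2.2.6, MACS2 2.1.1.20160309 and DiffBind without their roles here. Whether reads were pooled or shifted to the insertion site is not given in the sources used here. A deeper library would list more weak regions, and depth is unknown. Read counts per sample were not analysed here, and 0 columns of per-sample values were left unused.

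All region ends lay inside the mm10 (GRCm38) chromosomes. Coordinates are 1-based. Python 3.11.15, numpy 2.4.6, pandas 2.3.3 and scipy 1.17.1 were used, with GENCODE vM21 (v44 for human), and sequences were read from the RefSeq copy of GRCm38. The functions for distance, overlap, chains and weighting were tested on simulated data, and overlaps also against bedtools. Since each group had 1 list, no test was made. Alternatives changed the distance limit, start sites, overlap rule, list size, weighting, chain gap, noncoding annotation and sequence window. Named were the 10 highest-scoring far regions of each list (examples given), the 5 highest in one list, the 10 widest rises and falls, the 5 longest chains, the 10 fullest stretches, the 3 with the most one-list regions of either kind, their bordering coding and noncoding genes, and a list of 51 genes. The far regions, lists and rules were chosen with earlier results of these data known. Some items are not reported here.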

Additional observations from a re-analysis of the deposited data

How the results depend on the processing

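No paired analysis was possible because each group had 1 list, and no sample was left out for the same reason. The depth behind the lists is unknown, so a weak region that is missing from a list and one below its threshold cannot be told apart. Alternatives of GC weighting, of the 50 to 200 kb comparison, of repeats and of coding gene spans were chosen after seeing the data. The excess of mets-only far regions kept its direction under all 7 alternatives run for it.

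In the order primary tumor, mets, far regions numbered 7148 and 9561 (10.5% and 11.8% of the lists) beyond 100 kb, and 630 and 1041 (0.925% and 1.29%) beyond 500 kb. With only the 5-prime end of each gene as a start site, there were 4709 in the primary tumor list, 6.92% and 8.06% of the lists. The primary tumor-only share was 13.3% where 50% of the region had to be covered and 16.4% in lists of equal size. The mets-only share was 32.9% in the upper 50% of each list by score, 27.6% in lists of equal size, 32.6% beyond 100 kb and 45.1% beyond 500 kb. The difference from other regions was -0.284 points in the primary tumor list, a change of sign, and 11.7 points in mets weighted on GC, 0.934 and 12.0 on GC and score, and 0.766 and 8.65 against regions at 50 to 200 kb. The median percentile of far mets regions beyond 500 kb was 42.8. With a gap of 5 kb, 35.3% and 35.5% had company and chains numbered 133 and 153, and with 20 kb 67.7% and 65.8% had company. Exons of noncoding genes overlapped 3.53% and 2.74%, against 19.4% and 17.6% for whole genes, and for exons the far regions lay below the others (6.05% and 5.45%), a turn of direction. Without pseudogenes and TEC genes, 3.01% and 2.27% lay within 1 kb of a noncoding start. The median change of shared far regions was 0.405 points ranked among shared regions. The causes were not tested.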

Other observations

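A minority of far regions, 8.21% in the primary tumor list and 8.75% in the mets list, had their center inside the span of a very long coding gene, against 56.8% and 55.5% of the others. The mets-only share of these was 43.3% (95% interval 38.4 to 48.2) of 393, against 36.6% (35.1 to 38.1) of the 4100 far regions outside coding genes. Rad51b, a gene of homologous recombination, held 14 primary tumor and 17 mets far regions, and Myo16, an unconventional myosin gene, held 14 and 10. Ctnna3, which encodes an alpha catenin of cell junctions, held 9 in the mets list, of which 8 were mets-only. Lrmda held 7 in mets, 6 of them mets-only. These genes were chosen after their values were seen.

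Among shared far regions the change in percentile differed by consensus sequence. The median change from the primary tumor list to mets was 11.6 points (quartiles 2.54 and 21.3) at the 25 with a CTCF match and 3.43 points at those without. All 29 far primary tumor regions with a CTCF match had a median percentile of 23.3 in that list, against 50.4 for all its far regions. A low start leaves more room to rise, and its part was not tested. At the 210 with a RUNX match it was 7.11 points, against 3.23 without. At the 1598 with an AP-1 match it was 3.31 points, against 3.80 without, and at the 225 with a FOXA match 5.54 against 3.42. The same order of CTCF and RUNX was seen among nearer shared regions, at 8.70 points with CTCF and 6.08 with RUNX. For the other consensus sequences the medians of far regions with a match ran from -2.18 points (ETS, 7 regions) to 4.64 points (KLF, 22 regions). No test was made of these medians.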
